A study of Arabidopsis thaliana with 8 samples.

Results

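Loss of the RNA-dependent RNA polymerase RDR6 in plants that keep a working DDM1 was examined in Arabidopsis thaliana by setting the 2 arrays of the rdr6-15 mutant against the 2 arrays of Col-0, the wild type. These are 4 of the 8 arrays of a series whose other 4 come from the double mutant ddm1-2 rdr6-15 and from ddm1-2, with 2 arrays each. All 8 carry RNA from inflorescences at flower stages 9 to 12 of plants grown in long days, with tissue pooled for each array (n = 3 per the labels, which do not say 3 of what). Replicates are described as biological. The comparison covered 22746 probe sets, which is all 22810 of the ATH1 array except 64 control probe sets.

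RDR6 copies cleaved transcripts into double-stranded RNA, which is then cut into secondary small interfering RNAs, among them the trans-acting siRNAs (tasiRNAs) that silence auxin response factors and other targets. The mutants are known for an early change from juvenile to adult leaves and for narrowed, curled leaves, because a tasiRNA that restrains auxin response factors is missing. DDM1, a nucleosome remodeller, is needed for the methylation that silences transposons, and siRNAs made by RDR6 from transposons become abundant where DDM1 is lost. The rdr6-15 arrays against Col-0 therefore ask what goes with the loss of RDR6 in plants that still have DDM1.

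Signal is given as log2 values, so that a difference of 1 is a doubling. The arrays had medians of 3.73 to 3.81. The level without a target was read from 27 spike-in and control probe sets of Bacillus origin, whose highest mean was 3.56. Their second highest mean was 2.76 and their lowest 2.27, so the level is set by the highest control alone. Signal between 2.76 and 3.56 is therefore not certain to be absent. A group mean at or below it is called control level here, and a difference against control level is a lower limit. No probe set was paired with RDR6 or DDM1 in the annotation used here, so the mutated genes themselves were not read. Only 13513 tested probe sets had a single listed gene, and the others are named by their probe set. Of the 22746, 9715 (42.7%) were at control level in both rdr6-15 and Col-0.

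The rdr6-15 replicates were far apart. Replicate 1 minus replicate 2 had an SD of 0.922 over all probe sets in rdr6-15, against 0.301 in Col-0, with 0.360 in the double mutant and 0.310 in ddm1-2. Replicate 1 correlated at 0.852 to 0.879 with the other 7 arrays over all probe sets, a description only. Some control probes also set that array apart. The actin 3′ minus 5′ signal, a measure of RNA integrity, was 2.98 and 2.04 in rdr6-15, against 2.16 and 2.17 in Col-0. For ubiquitin the 3′ minus 5′ signal was 1.05 and 0.53 in rdr6-15, against 0.36 and 0.31 in Col-0. For GAPDH it was -0.51 and -0.83 in rdr6-15, against -0.58 and -0.64 in Col-0. By GAPDH replicate 1 was therefore not set apart. The part of RNA quality in the differences of replicate 1 was not tested. One spike-in control (bioB, middle probe set) was lower on both rdr6-15 arrays, with 8.95 and 8.35 against 10.06 and 9.81 in Col-0, and it was also lower on the 4 remaining arrays (7.39 to 8.83).

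Taken one at a time against Col-0, the arrays gave unlike pictures. Replicate 1 lay more than 3 log2 units above the Col-0 mean for 122 probe sets and more than 3 below it for 336, while replicate 2 did so for 1 and 3. Within 1 log2 unit of Col-0 were 84.2% of probe sets on replicate 1 and 97.9% on replicate 2. With each replicate given its own term in limma, replicate 1 was called higher than Col-0 (adjusted p under 0.05) for 2605 probe sets (11.5%) and lower for 2809 (12.3%). Replicate 2 was called higher for 6 (0.0264%) and lower for 23 (0.101%). A single array has no spread of its own, so in these tests it is assumed to vary like the Col-0, ddm1-2 and double-mutant arrays.

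**Figure D1:**
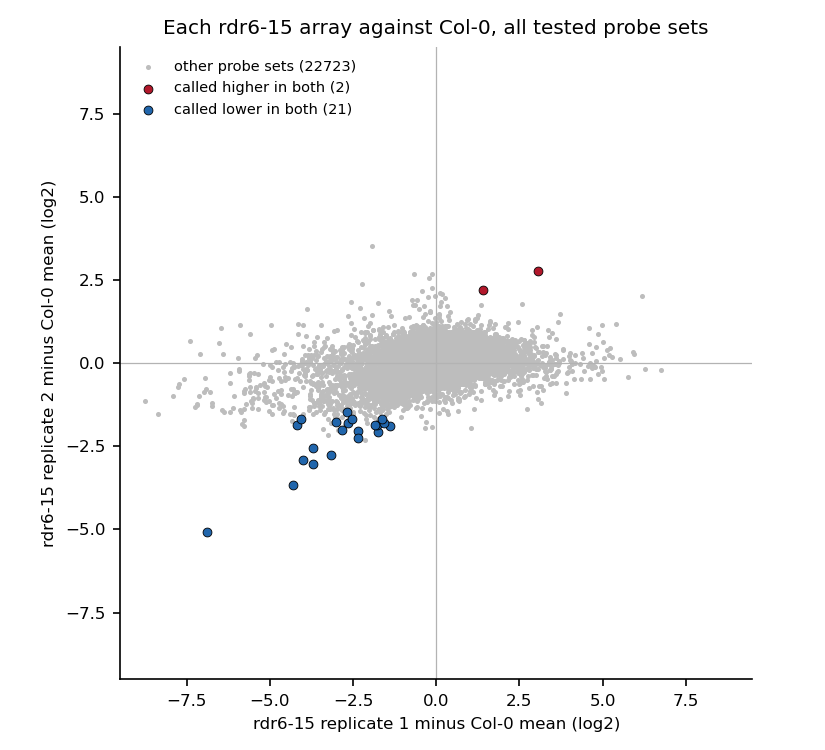
Difference of rdr6-15 replicate 1 (x axis) and rdr6-15 replicate 2 (y axis) from the Col-0 mean, log2 units, for all 22746 tested probe sets. Red and blue points are the 2 probe sets called higher and the 21 called lower on both arrays; the cloud is wide along replicate 1 (SD 0.950) and narrow along replicate 2 (SD 0.369).

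Both replicates shared a small set. Adjusted p was under 0.05 in the same direction on both arrays for 23 probe sets (0.101% of those tested), 2 of them higher (0.00879%) and 21 lower (0.0923%). In 15 of the 21 replicate 1 lay further below Col-0 than replicate 2. Over all 22746 probe sets replicate 1 lay further from Col-0 than replicate 2 in 15277, a like share. The median differences of the 21 were -2.69 on replicate 1 and -1.88 on replicate 2. All 23 were called again after quantile normalization of the arrays. None was called when either Col-0 array or either ddm1-2 array was left out of the fit. Without either double-mutant array all 23 were called again among 77, and with only the rdr6-15 and Col-0 arrays fitted the count was 205.

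With both rdr6-15 arrays averaged, 2 probe sets passed the threshold (0.00879%), 1 higher (0.0044%) and 1 lower (0.0044%), while 2270 (9.98%) had an unadjusted p under 0.05 in limma. Both belong to the shared 23. Without rdr6-15 replicate 1 the count was 29, without rdr6-15 replicate 2 it was 5414, and without any one array of another genotype it was 0.

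The gene that rose was QQS, a gene found only in Arabidopsis that lowers leaf starch and whose activity is tied to the methylation of repeats beside it. QQS had 7.08 and 6.79 in rdr6-15, against 3.81 and 4.25 in Col-0. The groups did not overlap, and the nearest arrays were 2.54 apart. The difference was 2.90 (SE 0.22, limma adjusted p = 0.0453). It was 3.05 for replicate 1 (adjusted p = 4.16e-05) and 2.76 for replicate 2 (adjusted p = 0.0111). The call over both arrays lies close to the threshold and depended on the fit. In limma the adjusted p was 0.0712 after quantile normalization, 0.164 with array weights and 0.203 with a replicate block. With only the rdr6-15 and Col-0 arrays fitted it was 0.927. It was 0.0289 to 0.0458 with arrays centred on their medians, dim or shared probe sets left out, or a trended, robust variance. The difference was 2.68 to 3.13 when 1 array of another genotype was left out.

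QQS also stood high where DDM1 was lost. It read 5.83 and 5.87 in the double mutant and 7.22 and 7.52 in ddm1-2, so that Col-0 was the lowest of the 4 genotypes. The other shared riser, probe set 267452_at, has no listed gene. It read 6.33 and 7.11 in rdr6-15, against 4.96 and 4.88 in Col-0. Its replicates differed from Col-0 by 1.40 (adjusted p = 0.00199) and 2.19 (adjusted p = 0.0153), and with both averaged by 1.80 (adjusted p = 0.186).

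Of the 21 shared lower probe sets, 10 had a listed gene. AT5G39520 had 3.71 and 4.34 in rdr6-15, against 7.93 and 8.10 in Col-0. AT1G09500, a relative of cinnamyl alcohol dehydrogenases, had 2.28 and 3.35 in rdr6-15, against 6.32 and 6.22 in Col-0. AT1G05340 had 4.24 and 4.62 in rdr6-15, against 7.62 and 7.17 in Col-0. In each, both rdr6-15 arrays were over 2 log2 units under the lower Col-0 array. Replicate 2 alone differed by -3.68 for AT5G39520 (adjusted p = 0.0344), by -2.92 for AT1G09500 (adjusted p = 0.0238) and by -2.77 for AT1G05340 (adjusted p = 0.0153). Averaged over both arrays the adjusted p was 0.111 for AT5G39520 and AT1G09500, and 0.0627 for AT1G05340, whose difference was -2.96 (SE 0.26).

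AT5G40690 had 2.88 and 4.03 in rdr6-15, against 6.66 and 6.54 in Col-0. AT2G31945 had 3.39 and 4.19 in rdr6-15, against 6.14 and 6.29 in Col-0. AT3G61930 read 3.25 and 3.55 in rdr6-15, so at control level, against 5.67 and 5.54 in Col-0. No role is given here for these loci. PAP20, a purple acid phosphatase, had 2.89 and 2.87 in rdr6-15, against 4.96 and 4.52 in Col-0. AT1G79520, of the cation efflux family of metal transporters, had 5.05 and 4.82 in rdr6-15, against 6.67 and 6.56 in Col-0. The 2 rdr6-15 arrays lay close together for both genes, and the differences over both arrays were -1.86 for PAP20 and -1.68 for AT1G79520.

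AT4G18425, a membrane protein of the DMP family, was the least even of the 10, with 2.12 and 4.50 in rdr6-15, against 6.12 and 6.24 in Col-0. AT2G25625 had 3.53 and 4.38 in rdr6-15, against 6.13 and 5.99 in Col-0. Of these 10 genes 5 were at control level in rdr6-15 by their mean, among them AT1G09500, AT3G61930 and PAP20, so that their falls may be lower limits. Replicate 1 lay further from Col-0 in 8 of the 10, where over all 22746 probe sets it did so in 15277.

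The other 11 shared lower probe sets have no listed single gene. Among them 248918_at lay furthest from Col-0, with 3.06 and 4.88 in rdr6-15, against 10.12 and 9.80 in Col-0. Probe set 264261_at was the one called with both arrays averaged, with 3.79 and 3.89 in rdr6-15, against 6.07 and 6.22 in Col-0, a difference of -2.30 (SE 0.15, adjusted p = 0.0408). Its rdr6-15 arrays differed by less than its Col-0 arrays did.

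Among the 21 shared lower probe sets all 6 mutant arrays lay below both Col-0 arrays in 21. Their median level was 3.53 and 4.22 on the rdr6-15 arrays, 4.19 and 4.53 on the double-mutant arrays and 4.23 and 4.14 on the ddm1-2 arrays, against 6.32 and 6.29 on the Col-0 arrays. The median difference from Col-0 was -1.81 in the double mutant and -1.85 in ddm1-2. All these comparisons use the same 2 Col-0 arrays, so they are not separate evidence. The ddm1-2 plants carry RDR6, so the low levels were not limited to arrays without it. Whether the mutants were low or the 2 Col-0 samples high cannot be told apart with this design. The bioB spike-in probe set named above divided the arrays in the same way, and a link to these probe sets was not tested.

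**Figure D2:**
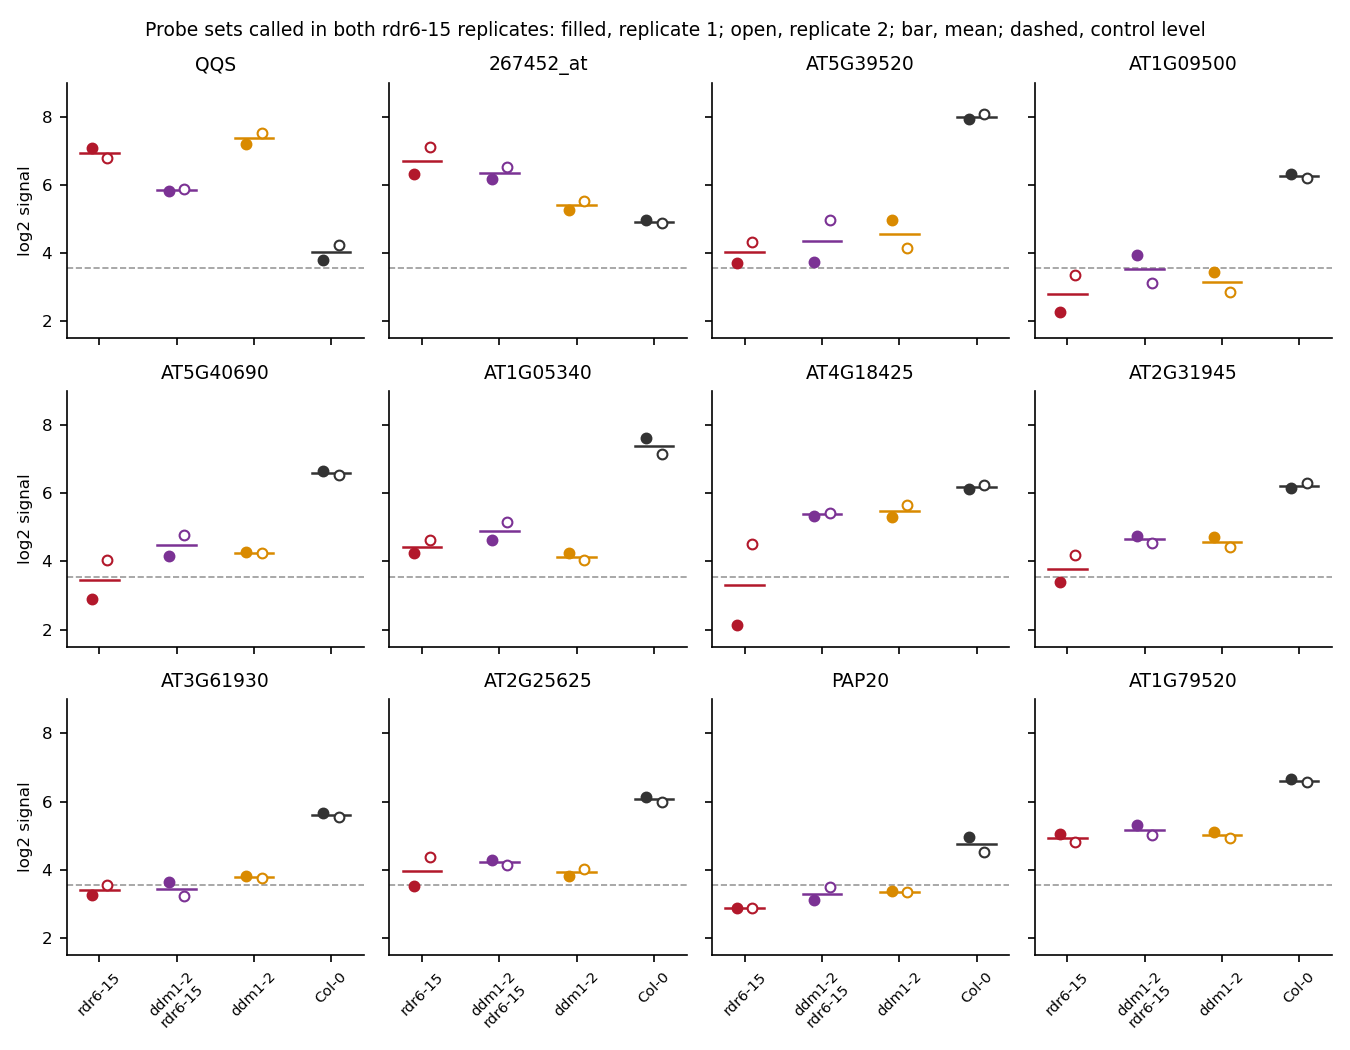
Log2 signal (y axis) on all 8 arrays for the 2 probe sets called higher and the 10 genes called lower on both rdr6-15 arrays, by genotype (x axis); filled points are replicate 1, open points replicate 2, bars the mean of both and the dashed line the control level of 3.56. In the 10 lower genes the Col-0 points stand above the points of all 3 mutants, while QQS is lowest in Col-0.

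A second count asked for distance and used no test. The rdr6-15 arrays were both higher than either Col-0 array in 4230 probe sets (18.6%) and both lower in 3659 (16.1%). A distance of at least 1 log2 unit was reached above in 17 (0.0747%) and below in 169 (0.743%). Of the 17, 10 had a listed gene. The counts of 17 and 169 were 34 and 350 without Col-0 replicate 1, and 66 and 228 without Col-0 replicate 2. With rdr6-15 replicate 1 left out they were 82 and 211, and with rdr6-15 replicate 2 left out 1361 and 1679.

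AT5G03350, a legume-type lectin, had 10.35 and 6.16 in rdr6-15, against 4.18 and 4.13 in Col-0. GSTU20, a glutathione transferase, had 8.72 and 6.49 in rdr6-15, against 4.85 and 5.17 in Col-0. Both stood higher on replicate 1 than on replicate 2 by more than 2 log2 units, and with the arrays averaged neither passed (adjusted p = 0.387 for AT5G03350 and 0.339 for GSTU20). More even were AT3G18050, with 6.95 and 6.17 in rdr6-15, against 4.08 and 4.67 in Col-0, and AT2G34620, which encodes a protein of the mTERF family, with 8.23 and 7.28 in rdr6-15, against 5.99 and 6.16 in Col-0. AT1G49750, a leucine-rich repeat protein, had 9.44 and 8.22 in rdr6-15, against 7.07 and 6.91 in Col-0. None of these reached the threshold on replicate 2 alone, where the smallest adjusted p among them was 0.0564, for AT5G03350 and for AT3G18050.

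The least spread risers were the plastid gene psaA, which encodes a core protein of photosystem I, with 5.65 and 5.45 in rdr6-15, against 4.38 and 4.22 in Col-0, and AT1G02110, with 5.60 and 5.61 in rdr6-15, against 4.43 and 4.55 in Col-0. AT5G50740, with a heavy-metal-associated domain, had 6.17 and 5.66 in rdr6-15, against 4.61 and 4.62 in Col-0. The dioxygenase-like gene 2A6 had 6.29 and 6.00 in rdr6-15, against 4.96 and 4.98 in Col-0. Their differences over both arrays were 1.25 for psaA, 1.12 for AT1G02110, 1.29 for AT5G50740 and 1.18 for 2A6, and their adjusted p-values lay between 0.128 and 0.270.

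The genes of the RDR6 pathway itself gave little signal. Of 30 listed tasiRNA precursors and targets 7 had a probe set, all of them pentatricopeptide repeat genes, which are targets of tasiRNAs and sources of further siRNAs. All 7 were at control level on every array, so no change could be read. AGO7, the Argonaute that starts tasiRNA production from the TAS3 transcripts, had 3.71 and 3.76 in rdr6-15, against 3.34 and 3.47 in Col-0 (difference 0.33, adjusted p = 0.662). SE, which helps to process miRNA precursors, had 5.17 and 5.41 in rdr6-15, against 5.27 and 4.66 in Col-0.

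Other sources of secondary siRNAs had 3 probe sets. The miRNA target AGL16, a MADS-box gene, had 4.13 and 4.26 in rdr6-15, against 3.87 and 4.01 in Col-0 (difference 0.25, adjusted p = 0.638). AT1G15890, a gene of the NBS-LRR class of immune receptors, had 3.72 and 2.85 in rdr6-15, against 2.42 and 2.86 in Col-0, and was called higher on replicate 1 only. The third, AT5G43740 of the same class, was at control level in both groups, as was AT1G15890 by its group means. For the 3 the median differences were 0.36 on replicate 1 and 0.22 on replicate 2, while all probe sets had 0.04 and -0.00174.

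Among miRNA targets tied to phase change and leaf polarity, PHV, a homeodomain-leucine zipper gene of the upper leaf side, had 4.40 and 6.38 in rdr6-15, against 5.95 and 6.07 in Col-0. SNZ, which delays flowering, had 4.44 and 3.50 in rdr6-15, against 3.20 and 3.20 in Col-0. Replicate 2 differed from Col-0 by 0.37 for PHV and 0.29 for SNZ, and neither passed over both arrays. SMZ was at control level.

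Annotated pseudogenes, a class of 998 probe sets that includes many transposon sequences, had a median difference of 0.15 on replicate 1 and -0.10 on replicate 2. On replicate 1, 53 were called higher and 1 lower, which are smaller shares than the 11.5% higher and 12.3% lower over all probe sets, and on replicate 2 there were 0 of 998 in either direction. Over both arrays 0 were called, where all probe sets together had 2, and 141 of the 998 were above control level. Of the genes silenced by methylation, the list had a probe set for QQS only.

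Late pollen genes lay below Col-0 on both arrays. Of 30 listed genes 11 had a probe set, and in all 11 the higher rdr6-15 array was below the lower Col-0 array, as it was in 16.1% of all probe sets. On replicate 1, 9 of the 11 were called lower, where 12.3% of all probe sets were. On replicate 2 there were 0, and over both arrays 0. The medians were -2.26 on replicate 1 and -0.67 on replicate 2, while all probe sets had 0.04 on replicate 1 and -0.00174 on replicate 2. AT59, a pectate lyase of pollen, had 2.94 and 5.44 in rdr6-15, against 6.58 and 6.93 in Col-0. AT5G45880, whose product resembles a pollen allergen, had 2.68 and 8.80 in rdr6-15, against 9.45 and 9.88 in Col-0. AT4G39110, a receptor-like kinase of the pollen tube, had 3.42 and 5.91 in rdr6-15, against 6.42 and 6.74 in Col-0.

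At control level were 10 of the 11 on rdr6-15 replicate 1 and 3 of the 11 on rdr6-15 replicate 2, against 3 and 1 on the Col-0 arrays. Summed over the 11 on the linear scale the signal was 92.1 and 818 in rdr6-15, against 1234 and 1801 in Col-0. The double mutant had sums of 365 and 102, and ddm1-2 had 326 and 216, so a low pollen signal was found on every mutant array and replicate 2 of rdr6-15 was the nearest to Col-0. In whole inflorescences fewer cells of a type and less RNA per cell cannot be told apart, and the stage of the flowers sampled was not tested. The sperm cell histone gene MGH3 had 2.84 and 2.83 in rdr6-15, against 3.34 and 3.41 in Col-0, all at control level.

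RALF-like genes, a family outside that list, were looked up by symbol. Of 11 probe sets for RALF-like signal peptides, RALFL26 had 3.60 and 6.37 in rdr6-15, against 7.96 and 7.82 in Col-0. RALFL25 had 2.29 and 4.47 in rdr6-15, against 5.85 and 6.15 in Col-0. These 2 were singled out after their values were seen. In each, the higher rdr6-15 array was more than 1 log2 unit under the lower Col-0 array, and only replicate 1 was called lower. On replicate 1, 2 of the 11 were called lower and 1 higher, where 12.3% and 11.5% of all probe sets were. The rdr6-15 pair stood wholly under the Col-0 pair in 3 of the 11 and wholly over it in 1. Over all probe sets these shares were 16.1% and 18.6%. The family medians were -0.06 on replicate 1 and -0.19 on replicate 2. RALFL33 had 8.62 and 6.55 in rdr6-15, against 6.87 and 6.68 in Col-0.

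Anther genes of the tapetum, the layer that feeds young pollen, had 6 probe sets. Both rdr6-15 arrays lay above both Col-0 arrays in 3 of the 6 and below in 0, where all probe sets gave 18.6% above and 16.1% below. ATA27, a beta-glucosidase of the tapetum, had 3.53 and 8.12 in rdr6-15, against 5.24 and 6.26 in Col-0. SHT, which makes spermidine conjugates of the pollen coat, had 3.57 and 5.48 in rdr6-15, against 3.35 and 3.47 in Col-0. For ATA27 the replicates lay on opposite sides of Col-0, with differences of -2.22 on replicate 1 (adjusted p = 0.0214) and 2.37 on replicate 2 (adjusted p = 0.180). Over the 6 probe sets of the list the median was -0.08 on replicate 1 and 0.96 on replicate 2, and 0 of 6 were called over both arrays. The 6 summed to 68.4 and 382 on the linear scale in rdr6-15, against 93.7 and 127 in Col-0.

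Nuclear photosynthesis genes were called higher on replicate 1 in 4 of 5 probe sets, against 11.5% of all probe sets, and on replicate 2 in 0 of 5. LHCB4.2, a chlorophyll-binding protein, had 11.17 and 10.53 in rdr6-15, against 10.61 and 10.35 in Col-0. PSAE-1, of photosystem I, had 12.09 and 10.92 in rdr6-15, against 11.02 and 10.80 in Col-0. Plastid-encoded genes, a class of 69 probe sets chosen with its values known, were called higher in 51 of 69 on replicate 1, with the same 11.5% over all probe sets, and in 0 of 69 on replicate 2. Their medians were 1.47 on replicate 1 and 0.26 on replicate 2, and both rdr6-15 arrays lay above both Col-0 arrays in 41 of the 69 and below in 0, where all probe sets gave 18.6% above and 16.1% below. The ribosomal protein gene rps14 had 7.09 and 2.73 in rdr6-15, against 2.41 and 2.44 in Col-0. The gene rbcL, for the large subunit of Rubisco, had 9.70 and 7.90 in rdr6-15, against 7.29 and 7.37 in Col-0. For rps14 replicate 2 was at the level of Col-0, and for rbcL both arrays were above it.

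BCAT4, which starts the chain elongation of methionine for glucosinolates, had 8.15 and 3.04 in rdr6-15, against 2.94 and 2.77 in Col-0. It was called on replicate 1 (difference 5.30) and lay at control level on every other array. WRKY53, a transcription factor of leaf senescence and salicylate defence, had 6.36 and 2.32 in rdr6-15, against 2.95 and 2.94 in Col-0. THI2.1, a thionin of flowers that responds to jasmonate, had 2.70 and 9.37 in rdr6-15, against 9.07 and 9.12 in Col-0. The other 2 probe sets of the jasmonate list went the other way on replicate 1, with differences of 0.51 for PDF1.2 and 0.84 for PDF1.2b. On replicate 2 they differed by -0.02 and -0.15. BCAT4, WRKY53 and THI2.1 each differed from Col-0 by over 3 log2 units on replicate 1 and by less than 1 on replicate 2. Root markers, by contrast, were at control level on all 8 arrays in 4 of 4 probe sets.

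The senescence list had 2 probe sets, and both lay below Col-0 on replicate 1, with differences of -1.57 for PPDK and -2.34 for SAG29. SAG29 had 3.55 and 5.29 in rdr6-15, against 6.02 and 5.76 in Col-0. The replicates lay closer together for PPDK, pyruvate orthophosphate dikinase. It had 7.11 and 7.44 in rdr6-15, against 8.68 and 8.70 in Col-0, a difference of -1.41 (adjusted p = 0.111). Replicate 2 alone differed by -1.25 (adjusted p = 0.0564). The remaining lists, of small RNA machinery, silencing factors, flowering time, floral organ identity, heat shock, the circadian clock, the cell cycle and reference genes, had 1 to 5 probe sets each and none was called over both arrays or on replicate 2. The Aurora kinase genes AUR1 and AUR2 of the cell cycle list were called lower on replicate 1, with differences of -1.10 and -1.27; they are the list's 2 probe sets, and 12.3% of all probe sets were called lower there.

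**Figure D3:**
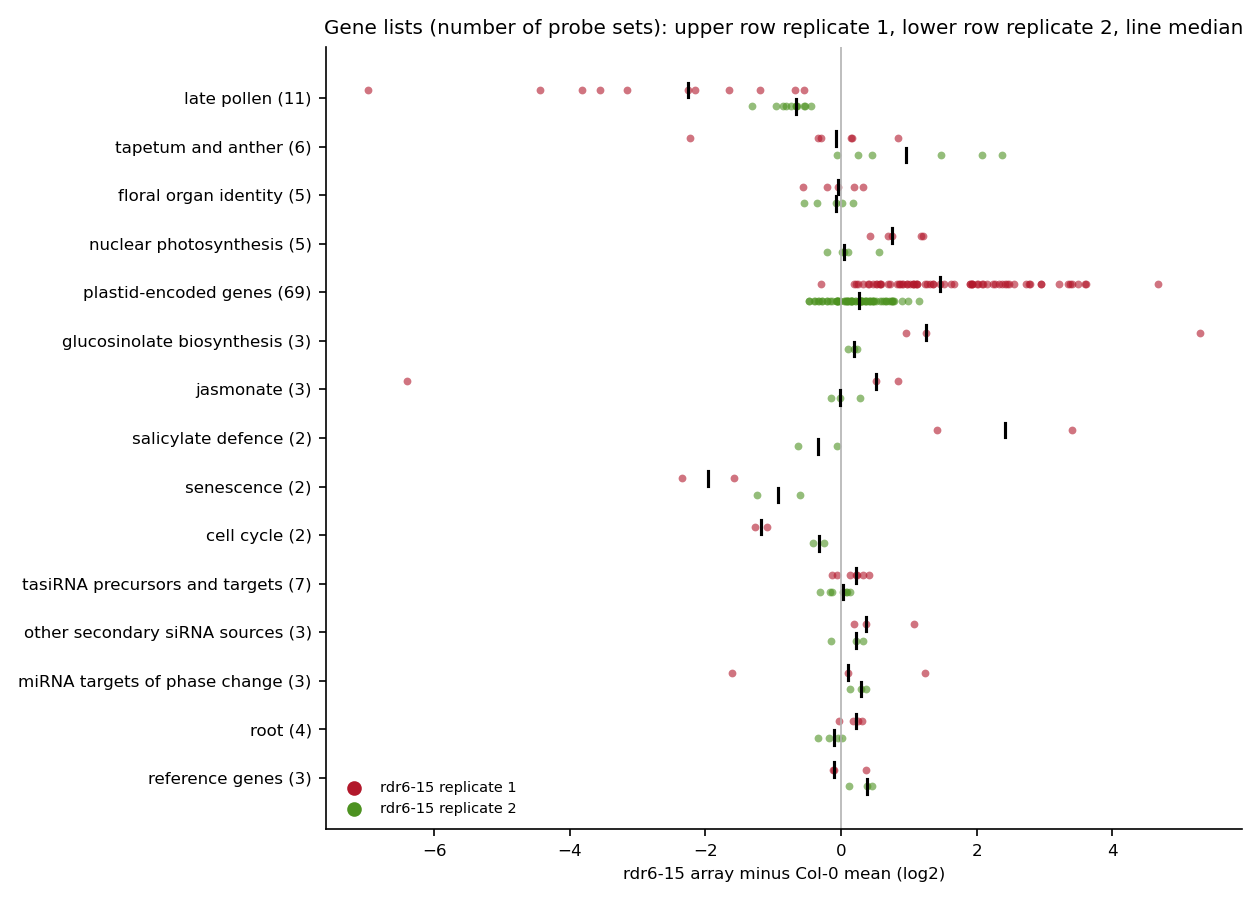
Difference of each rdr6-15 array from the Col-0 mean (x axis, log2 units) for the probe sets of 15 gene groups, with the number of probe sets in brackets; red points are replicate 1, green points replicate 2 and black lines the medians. Late pollen genes lie below 0 on both arrays (medians -2.26 and -0.67), plastid-encoded genes lie mostly above 0 on replicate 1 (median 1.47), and the 6 tapetum probe sets have a median of 0.96 on replicate 2, where 0 were called.

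The genes furthest from Col-0 were also listed for each array. On replicate 1 the lowest named gene was AT3G07820, a polygalacturonase of pollen, with 2.47 and 9.39 in rdr6-15, against 10.18 and 10.57 in Col-0. AT2G20870, a cell wall protein, had 3.68 and 11.75 in rdr6-15, against 10.81 and 11.34 in Col-0. AT1G10770, AT3G28750 and AT5G26700 fell by 7.20, 7.24 and 7.18 on replicate 1 and differed by -1.24, -1.32 and -1.26 on replicate 2. AT2G20870 was the one of these 5 that replicate 2 had above Col-0.

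On the high side of replicate 1 stood AT5G03350, then AT5G55450, a lipid transfer protein, with 8.48 and 4.26 in rdr6-15, against 3.31 and 2.83 in Col-0. AT2G25510 had 12.29 and 7.51 in rdr6-15, against 7.28 and 6.82 in Col-0. The lectin gene AT3G16530 had 8.39 and 3.99 in rdr6-15, against 3.59 and 3.16 in Col-0. These lay above Col-0 on both arrays, by over 5 log2 units on replicate 1 and by 1.19, 0.46 and 0.62 on replicate 2.

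On replicate 2 the furthest above Col-0, after QQS, were AT5G62080, a lipid transfer protein of the anther, ATA27, AT5G16920 and AT5G13380. AT5G62080 had 2.18 and 4.98 in rdr6-15, against 2.13 and 2.51 in Col-0. AT5G16920 had 2.75 and 5.16 in rdr6-15, against 2.90 and 2.88 in Col-0. Replicate 1 sat at the level of Col-0 for both, and their adjusted p on replicate 2 was 0.212 and 0.0837. Furthest below on replicate 2 were AT5G39520, AT1G09500, AT1G05340 and AT5G40690, which are all in the shared set, and AT1G68620, a carboxylesterase, with 4.16 and 5.27 in rdr6-15, against 7.40 and 7.45 in Col-0. AT1G68620 differed by -2.15 on replicate 2 (adjusted p = 0.0851).

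The loss of RDR6 can be read a second time where DDM1 is already lost, in the double mutant against ddm1-2. That comparison shares no array with rdr6-15 against Col-0, although the spread was estimated from all 8. It called 13 probe sets (0.0572%). None of the 21 shared lower probe sets was among them, their median difference there was 0.10 with a range of -0.35 to 0.79, and 2 of the 21 had an unadjusted p under 0.05. AT5G39520 had 3.74 and 4.97 in the double mutant, against 4.98 and 4.14 in ddm1-2, and AT1G05340 had 4.62 and 5.16 in the double mutant, against 4.24 and 4.05 in ddm1-2. For AT5G39520 ddm1-2, which has RDR6, was already near the level of the double mutant (difference -0.21). For AT1G05340 both double-mutant arrays lay above both ddm1-2 arrays (difference 0.75), the opposite direction to rdr6-15 against Col-0. For the 169 probe sets at least 1 below, the median in the double mutant against ddm1-2 was -0.13, and for the 17 above it was 0.01.

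QQS took opposite directions. Its difference was 2.90 in rdr6-15 against Col-0 and -1.52 in the double mutant against ddm1-2 (SE 0.22, adjusted p = 0.201). The difference between the 2 was tested as an interaction, which was -4.43 (SE 0.31, limma adjusted p = 0.0277). In all 2 probe sets passed that test (0.00879%), and 1430 (6.29%) had an unadjusted p under 0.05. Leaving out any one array outside rdr6-15 left 0 calls in that test.

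Few probe sets split all 4 arrays without RDR6 from all 4 arrays with it. By at least 0.5 log2 units 3 lay above (0.0132%) and 3 below (0.0132%). The 3 above were 267452_at, 247643_at and 267621_at, none with a listed gene. Probe set 267452_at read 6.33 and 7.11 in rdr6-15 against 4.96 and 4.88 in Col-0, and 6.17 and 6.52 in the double mutant against 5.27 and 5.55 in ddm1-2. Probe set 247643_at read 4.46 and 4.86 in rdr6-15 against 2.87 and 3.35 in Col-0, and 4.25 and 4.37 in the double mutant against 3.10 and 3.40 in ddm1-2.

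Below were AT5G64120, listed in RefSeq as peroxidase 71, AT3G28270 and TBL38. AT5G64120 had 4.56 and 4.09 in rdr6-15 against 5.38 and 5.42 in Col-0, and 4.50 and 3.96 in the double mutant against 5.18 and 5.39 in ddm1-2. Its difference was -1.07 with DDM1 intact and -1.05 with DDM1 lost. AT3G28270 had 4.32 and 4.32 in rdr6-15 against 5.24 and 5.06 in Col-0, and 4.29 and 4.52 in the double mutant against 5.13 and 5.37 in ddm1-2. TBL38, of a family that acetylates cell wall sugars, had 4.64 and 6.81 in rdr6-15 against 7.72 and 7.69 in Col-0, and 6.71 and 6.97 in the double mutant against 7.75 and 7.72 in ddm1-2. For these 6, chosen by the split itself, none passed the adjusted test over both arrays in either comparison, and without rdr6-15 replicate 1 the counts were 6 above and 11 below.

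**Figure D4:**
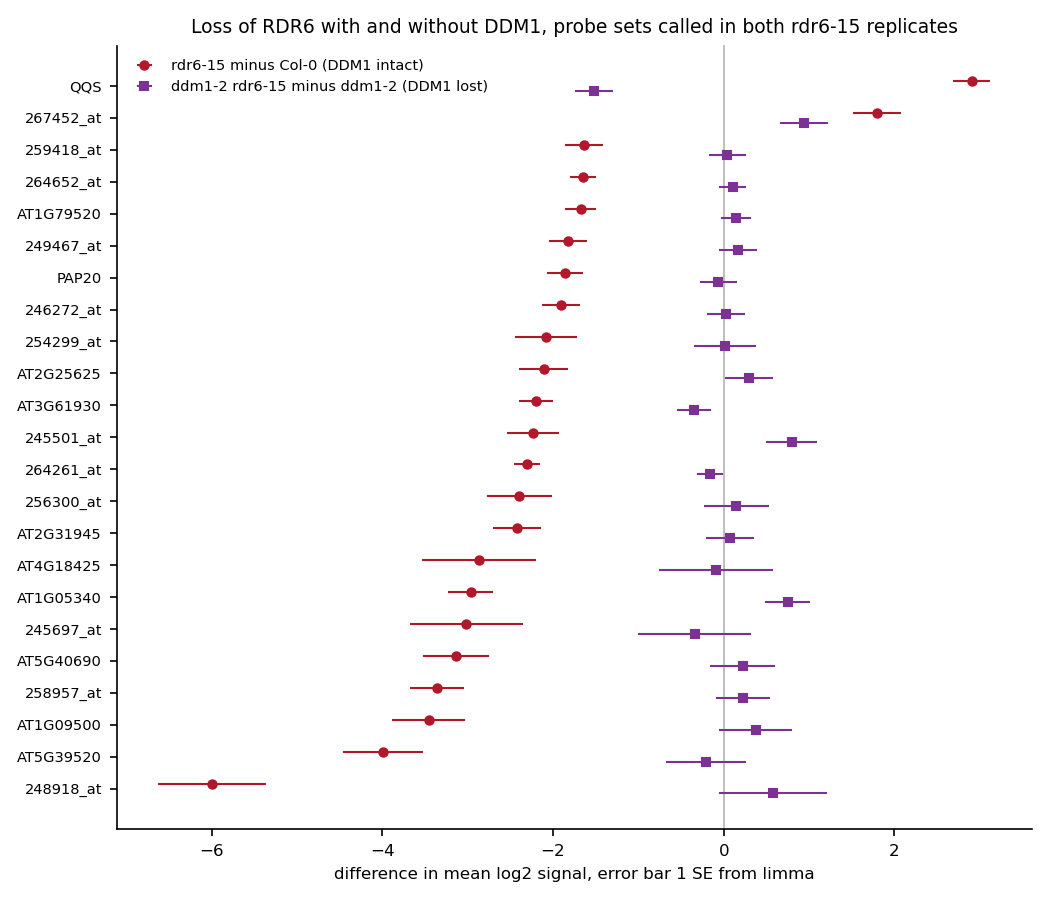
Difference in mean log2 signal (x axis; error bars are 1 SE from limma) for the 23 probe sets called on both rdr6-15 arrays, as rdr6-15 minus Col-0 (red circles) and as ddm1-2 rdr6-15 minus ddm1-2 (purple squares). The 21 lower probe sets sit near 0 in the second comparison (median 0.10), QQS changes sign (2.90 and -1.52), and 267452_at is above 0 in both (1.80 and 0.94).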

How the data were processed

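Per the labels, total RNA from pooled inflorescences was hybridised to Affymetrix ATH1 arrays (6 ug each). The authors deposited RMA summaries on the log2 scale, per the submitters' processing notes; for RMA the version was not given in the sources used here. No further scaling was added. Genes came from the platform annotation, with locus names and biotypes from TAIR10.1 by name only. The precision is limited by the number of arrays, and p-values measure the spread between these pooled samples.

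With limma 3.58.1 (R 4.3.3, lmFit and eBayes) the 8 arrays were fitted by genotype (4 residual and 2.82 prior degrees of freedom). A second fit gave each rdr6-15 array its own term (3 residual and 5.69 prior degrees of freedom). Two-sided p-values were corrected over 22746 probe sets (Benjamini-Hochberg, threshold 0.05). Non-overlap by at least 1 log2 unit was counted without a test. Of 21 lists of loci (400 loci), 20 had a probe set; the seed and embryo list had 0 of 14. Lists are described by counts and medians. The members and lists were chosen with earlier results of these data known.

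Named genes were those called over both arrays, the 10 highest and 10 lowest by gap among those called on both or not overlapping, the 5 highest and 5 lowest on each array and the 3 furthest from Col-0 in each list. Families by symbol, the plastid class and the split of 4 against 4 arrays were added after seeing the data.

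Data were simulated for rdr6-15 against Col-0 with the same spread on every array of a probe set. In the data the rdr6-15 replicates differed most, so these counts do not describe the rdr6-15 arrays themselves. With the spread of Col-0, ddm1-2 and the double mutant, the mean of 2 arrays found 38 of 50 set to shift by 1 log2 unit. It found 50 of 50 set to shift by 2, and 15 that were not shifted. With the spread of all 4 genotypes it found 6 of 50 and 44 of 50, and 12 that were not shifted. The rule of both arrays found 0 of 50 and 31 of 50, and 2 that were not shifted.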

Additional observations from a re-analysis of the deposited data

Results flagged for a closer look

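The effect of RDR6 loss differed between the genotypes with and without DDM1 for 2 genes by an interaction test in limma. For QQS the interaction was -4.43 (adjusted p = 0.0277), as described above. For AT3G30610, an annotated pseudogene, it was -3.76 (SE 0.23, adjusted p = 0.0249). AT3G30610 was at control level with DDM1 intact, with 2.55 and 2.62 in rdr6-15, against 2.53 and 2.41 in Col-0, and it read 2.42 and 2.54 in the double mutant, against 6.01 and 6.26 in ddm1-2. The negative value thus comes from the arrays without DDM1.

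A pair of control probe sets that no comparison used gave signal on rdr6-15 replicate 1. The 5S ribosomal RNA probe set read 4.79 and 3.10 in rdr6-15, against 2.94 and 2.87 in Col-0, with 2.66 to 3.08 on the other 4 arrays. The probe set named U12639 read 5.51 and 2.59 in rdr6-15, against 2.45 and 2.48 in Col-0, with 2.26 to 2.65 on the other 4 arrays.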

How the results depend on the processing

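With 2 arrays per genotype, counts moved widely. For rdr6-15 against Col-0 with both arrays averaged, 2 calls became 0 with a replicate block, with only the 4 arrays compared, with array weights or with an adjusted p under 0.01, 1 after quantile normalization and 5 with a trended, robust variance; leaving out 1 array gave 0 to 5414. The 23 probe sets called on both rdr6-15 arrays became 205 with only the 4 arrays compared, 59 after quantile normalization, 61 with arrays centred on their medians and 94 with a trended, robust variance; leaving out 1 array gave 0 to 77. The cause was not tested. The 186 probe sets at least 1 log2 unit apart became 10 at 2 log2 units, and 293 to 3040 with 1 of the 4 arrays left out (384 and 294 without Col-0 replicate 1 or 2). The 6 that split 4 arrays from 4 became 17 without rdr6-15 replicate 1. The 2 interaction calls became 0 with a replicate block or without dim probe sets, 4 after quantile normalization or with a trended, robust variance and 5 with array weights; leaving out 1 array gave 0 to 3810. Replicate numbers were not shown to pair the samples (correlations of replicate differences between genotypes from -0.06 to 0.42), and with the replicate block 18 of the 23 were called again among 20. ATA27 reversed without rdr6-15 replicate 2, at -2.22, and was 2.37 without rdr6-15 replicate 1. Signal near control level limits what 9715 probe sets can show.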
